A study of Danio rerio with 4 samples.

Results

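The loss of atrn was compared between female and male zebrafish brains, gene by gene, to find genes whose mutant over wild-type ratio differed with sex. For each gene the log2 ratio of atrn-/- over wild type in males was subtracted from the same log2 ratio in females. The result, called the difference below, is positive where the female ratio was the higher. Of 31030 genes in the table, 19943 averaged 10 counts or more per library and were kept. The rule took every kept gene whose ratios had opposite signs in the sexes or lay at least 4-fold apart, which were 8882 genes. Opposite signs of any size alone held for 8695 genes, 43.6% of those kept, whatever the size of the ratios. The 519 genes at least 4-fold apart, 2.6% of those kept, are described in depth. In 207 of them the female ratio was higher (1.04% of kept genes) and in 312 it was lower (1.56%).

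Brain RNA was sequenced from 4 groups of fish at 4 months post-fertilization (mpf), namely female atrn-/-, female wild type, male atrn-/- and male wild type. The mutants are homozygous for a deletion made with CRISPR/Cas9 in atrn, carried in every cell of the body, and come from the line nju70. Each group has 1 library, and the deposited values are counts of reads per gene. The study's methods describe the RNA of a single brain and its results speak of 3 brains per group, so the number of brains behind a library is not settled here.

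Attractin, the product of atrn, is a large transmembrane protein with CUB, kelch, lectin and EGF-like domains. In mice it takes part in pigment switching together with the agouti protein, and its loss is known for tremor, vacuoles in the brain and defects of myelin. The brain of the adult zebrafish is itself a target and a source of sex steroids, and male and female brains differ in part of their gene expression. A gene whose response to a mutation differs between the sexes can do so in several ways, since the wild types, the mutants or all of the groups may differ with sex.

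With 1 library for each sex and genotype there are 0 residual degrees of freedom for an interaction, so no p-value is given. The 95% intervals printed here come from exact tests on the counts and cover counting error only, not the spread between fish. In bulk RNA, fewer cells of a type and less RNA per cell cannot be told apart. Genes were chosen by the difference itself, so the differences are descriptions and no test was run on them.

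The targeted gene had fewer counts in the mutant of each sex. atrn had 423 counts in the female mutant and 662 in the female wild type, against 462 in the male mutant and 808 in the male wild type. The log2 ratio was -1.22 in females (95% counting interval -1.40 to -1.05) and -0.81 in males (-0.99 to -0.65). The difference was -0.41 (-0.65 to -0.16), far inside the 4-fold limit.

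Library totals ran between 8654693 and 16254750 counts, the female wild type being the smallest and the male mutant the largest, and ratios were scaled for these totals. One property of the libraries touches many of the genes below. A list of 56 skeletal muscle genes, which code for the sarcomere and its calcium handling, summed to 1422 CPM, which are counts scaled to the size of the library, in the female mutant and 7298 CPM in the female wild type, against 793 CPM in the male mutant and 1084 CPM in the male wild type. The female wild-type library was therefore far above the rest in muscle RNA, and 46 of the 56 genes had their highest value there. Counts of the highest or lowest library are given for lists only, without such a count over all kept genes. Liver and plasma genes (6 kept), exocrine pancreas genes (4 kept) and oocyte genes (3 kept) were mostly below the count limit.

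**Figure D1:**
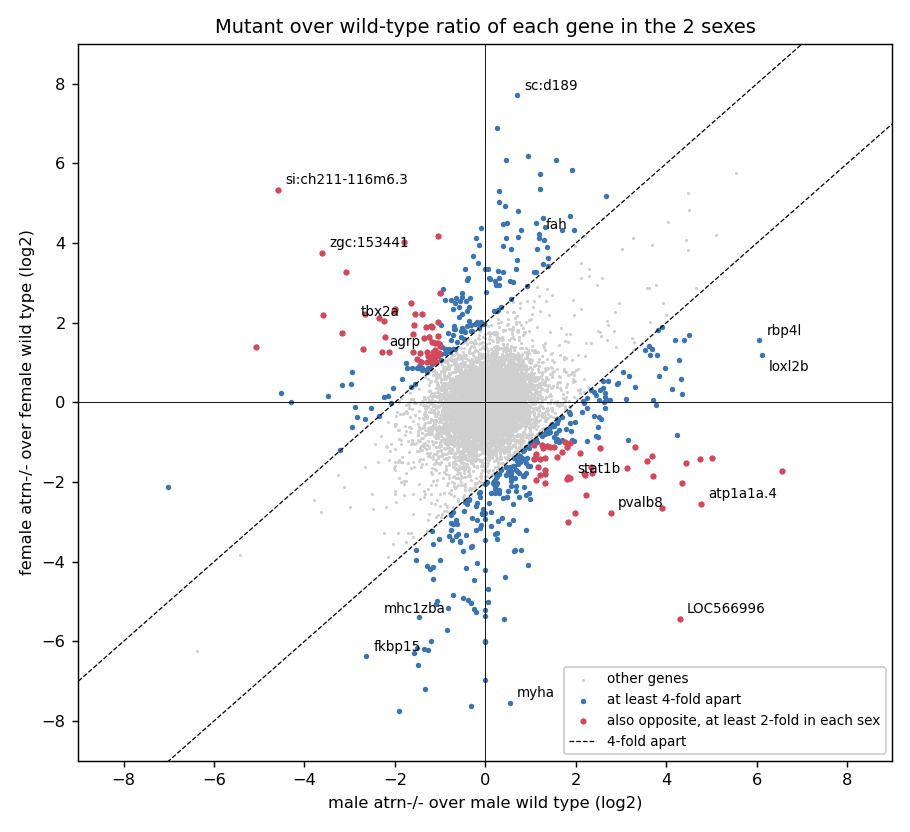
Each point is a gene, placed by its log2 ratio of mutant over wild type in males (x axis) and females (y axis). Dashed lines mark ratios 4-fold apart, blue marks the 519 genes beyond them and red the 102 whose ratios also had opposite signs and were at least 2-fold in each sex. The plot shows loose arms along the vertical axis (a ratio far from 1 in females, near 1 in males) and along the horizontal axis.

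Over all kept genes the difference had a median of -0.000219 and a standard deviation of 0.759 on the log2 scale, and 95% of genes lay between -1.65 and 1.35. At the limit, the nearest gene inside on the upper side had a difference of 2.0031 and the nearest outside 1.9950. On the lower side the values were -2.0006 inside and -1.9960 outside. The genes beyond the limit were less abundant than the rest, with a median of 24 counts per library, against 200 counts over all kept genes. Of the 519, 257 reached 50 counts in a library and 86 had a library at 0. Their counting intervals excluded 0 for 499 genes and stayed beyond 2-fold apart for 341. The genes were chosen by the difference in the same counts, which makes such intervals likely, so these numbers are no support for the differences. The difference was at least 8-fold for 185 genes and at least 16-fold for 92.

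In most of the 519 genes mutant and wild type were well apart in a single sex. Mutant and wild type differed by 2-fold or more in females only for 251 genes and in males only for 108. They did so in both sexes with opposite sign for 102 genes, which is 0.511% of kept genes, and in both with the same sign for 58. The share of all kept genes with a 2-fold ratio in females or in males is not given here. The split between the sexes therefore describes the 519 genes only. Read the other way, a sex difference of at least 2-fold was present between the wild types only for 231 genes, between the mutants only for 153, in both genotypes with opposite sign for 105 and in both with the same sign for 30. Over all kept genes, 980 (4.91%) had a 2-fold sex difference in the mutants and 1345 (6.74%) in the wild types.

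The difference is built from 4 values, and it was asked which of the libraries carried it. A library was called apart when it lay at least 2-fold above, or at least 2-fold below, each of the other 3. Exactly 1 library stood apart in 338 of the 519 genes (65.1%), 2 libraries in 56, and none in 125. Among the 207 genes with a higher female ratio, the female wild type was below the rest in 112. The female mutant was above in 18, the male mutant below in 19 and above in 2, and the male wild type above in 20. Among the 312 genes with a lower female ratio, the female mutant was below in 84, the female wild type above in 82, the male wild type below in 65, the male mutant above in 45 and below in 3. Over all kept genes, the female wild type stood below the rest in 233 genes (1.17%) and above in 167 (0.837%), the female mutant below in 230 (1.15%), the male wild type below in 163 (0.817%) and the male mutant above in 92 (0.461%).

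**Figure D2:**
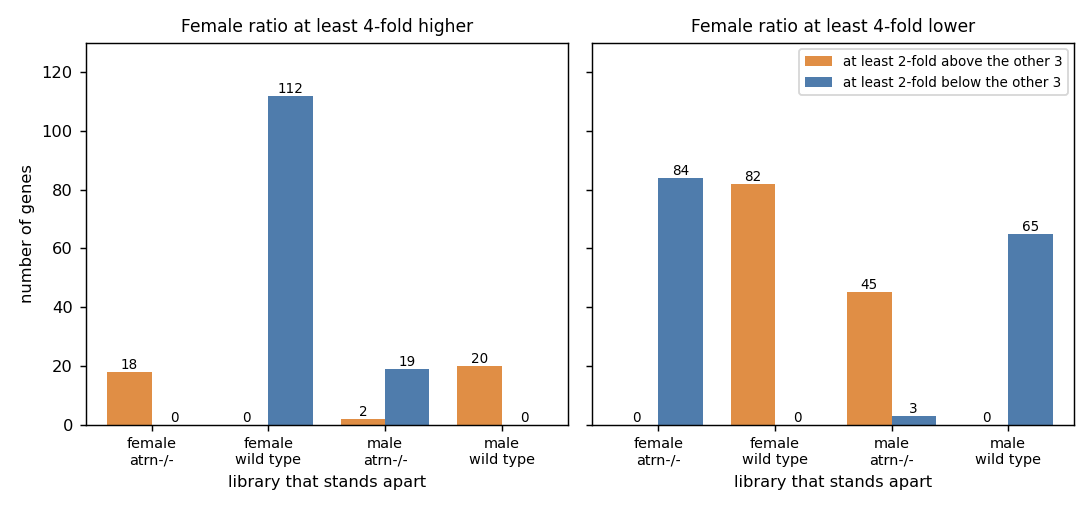
Bars give the number of genes in which a library lay at least 2-fold above (orange) or below (blue) each of the other 3, for genes with a female ratio at least 4-fold higher (left) and lower (right). The tallest bar is the female wild type below the others, with 112 of 207 genes. Genes with a lower female ratio were spread over the female mutant below (84), the female wild type above (82), the male mutant above (45) and the male wild type below (65).

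Without the genes in which the female wild type stood apart, 325 genes remained, 95 with a higher and 230 with a lower female ratio. A crossed pattern, with 2 libraries at least 2-fold above the other 2, was rarer. The female mutant and the male wild type stood above the other libraries in 21 genes, and the female wild type and the male mutant stood above in another 21.

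The most extreme form of a library standing apart is a gene nearly silent in it. In 43 genes, 1 library had at most 3 counts while each of the other libraries had at least 30. This was the female mutant for 19 genes, the female wild type for 21, the male wild type for 3 and the male mutant for 0. These limits are raw counts, not scaled for library totals. The female libraries were smaller than the male ones, with 13116358 counts in the female mutant and 8654693 in the female wild type. The male mutant had 16254750 counts and the male wild type 16100263. Whether library size accounts for the pattern was not tested. Of the 43 genes, 40 carry only a locus or clone name. All 43 were at least 4-fold apart between the sexes, which the pattern makes likely but does not force.

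Ratios of opposite sign were present in transcription factors, peptide hormones and enzymes as well as in unnamed loci. Of the 102 genes at least 2-fold in each sex, 54 were higher in the female mutant and lower in the male mutant than in their wild types, and 48 the reverse. The counting intervals excluded 0 in both sexes for 78 of them, which their choice by the size of the same ratios makes likely.

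tbx2a, a T-box transcription factor of embryonic patterning, had 75 counts in the female mutant and 12 in the female wild type, against 13 in the male mutant and 43 in the male wild type. The log2 ratio was 1.95 in females (1.18 to 3.08) and -1.57 in males (-2.76 to -0.82), and the difference was 3.53 (2.44 to 5.20). The female mutant and the male wild type were the high libraries. The counting intervals of the sexes did not overlap, which the choice of the gene by these ratios makes likely. isl1l, a LIM homeodomain factor, had 63 counts in the female mutant and 6 in the female wild type, against 18 in the male mutant and 32 in the male wild type. Its difference was 3.34 (2.07 to 5.38), most of it from the ratio in females.

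Ratios of opposite sign were also present in a few peptide hormones of the hypothalamus. pmchl and pmch encode precursors of melanin-concentrating hormone, a hormone known for paling of the skin and for feeding in fish. pmchl had 308 counts in the female mutant and 91 in the female wild type, against 133 in the male mutant and 320 in the male wild type. Its log2 ratio was 1.17 in females (0.84 to 1.53) and -1.26 in males (-1.58 to -0.98), a difference of 2.43 (2.0 to 2.92). pmch had 101 counts in the female mutant and 25 in the female wild type, against 59 in the male mutant and 90 in the male wild type. Its difference of 1.99 (1.22 to 2.91) fell just short of the 4-fold limit. After scaling, the female mutant was the highest library for both, and the lowest was the male mutant for pmchl and the female wild type for pmch.

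agrp, the agouti-related peptide that blocks melanocortin receptors and drives feeding, was counted at 28 in the female mutant and 7 in the female wild type, against 2 in the male mutant and 19 in the male wild type. On the log2 scale the ratio was 1.27 in females (0.19 to 2.86) and -2.30 in males (-6.41 to -1.21), with a difference of 3.57 (2.08 to 7.98). The wide intervals reflect how few reads agrp had in any library. agrp2, its paralog known from the zebrafish pineal, went another way, with 128 counts in the female mutant and 61 in the female wild type, against 212 in the male mutant and 91 in the male wild type. It was higher in the mutants of both sexes, and its difference was -0.70 (-1.31 to -0.12). pmchl and agrp were the only members beyond the 4-fold limit in a list of 42 neuropeptide genes (4.76%, against 1.04% of kept genes). The median difference of the list was 0.04, with 24 genes above 0. Near the lower end of that list lay npvf, the precursor of an RFamide peptide that acts on the reproductive axis, with a difference of -1.19 (-2.08 to -0.39), and gnrh3, which encodes the gonadotropin-releasing hormone of the zebrafish forebrain, with -1.13 (-2.51 to -0.07).

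In a list of 52 regional transcription factors, rx3 and the nkx2.4 genes, which are used in the hypothalamus, had ratios of opposite sign. rx3, which specifies eye and hypothalamus, had 23 counts in the female mutant and 6 in the female wild type, against 7 in the male mutant and 18 in the male wild type, a difference of 2.32 (0.72 to 4.83). nkx2.4b, a homeobox gene of the ventral hypothalamus, had 92 counts in the female mutant and 30 in the female wild type, against 48 in the male mutant and 88 in the male wild type, a difference of 1.86 (1.1 to 2.76). Its paralog nkx2.4a had a difference of 1.51 (0.96 to 2.12). Some other hypothalamic factors of the list did not share this. Among them were otpa, with log2 ratios of -0.50 in females and -0.57 in males, and sim1a, with a difference of -1.25 (-3.35 to 0.37). At the other end of the list lay emx3, emx1 and dlx2b, factors of the telencephalon. emx3 had 4 counts in the female mutant and 11 in the female wild type, against 41 in the male mutant and 27 in the male wild type, a difference of -2.18 (-4.85 to -0.67). emx1 had -1.49 (-2.64 to -0.52) and dlx2b, a factor of inhibitory neurons, had -1.46 (-2.42 to -0.65). Further telencephalic factors lay above 0, with lhx6 at 0.62 and dlx2a at 0.41. The median over the whole list was 0.09, and 1 gene passed the 4-fold limit in each direction. That is 1.92% of the list each way, against 1.04% of kept genes higher and 1.56% lower. pmch, the nkx2.4 genes, otpa, sim1a, lhx6, dlx2a, emx1, dlx2b, npvf and gnrh3 were named after their values were seen.

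**Figure D3:**
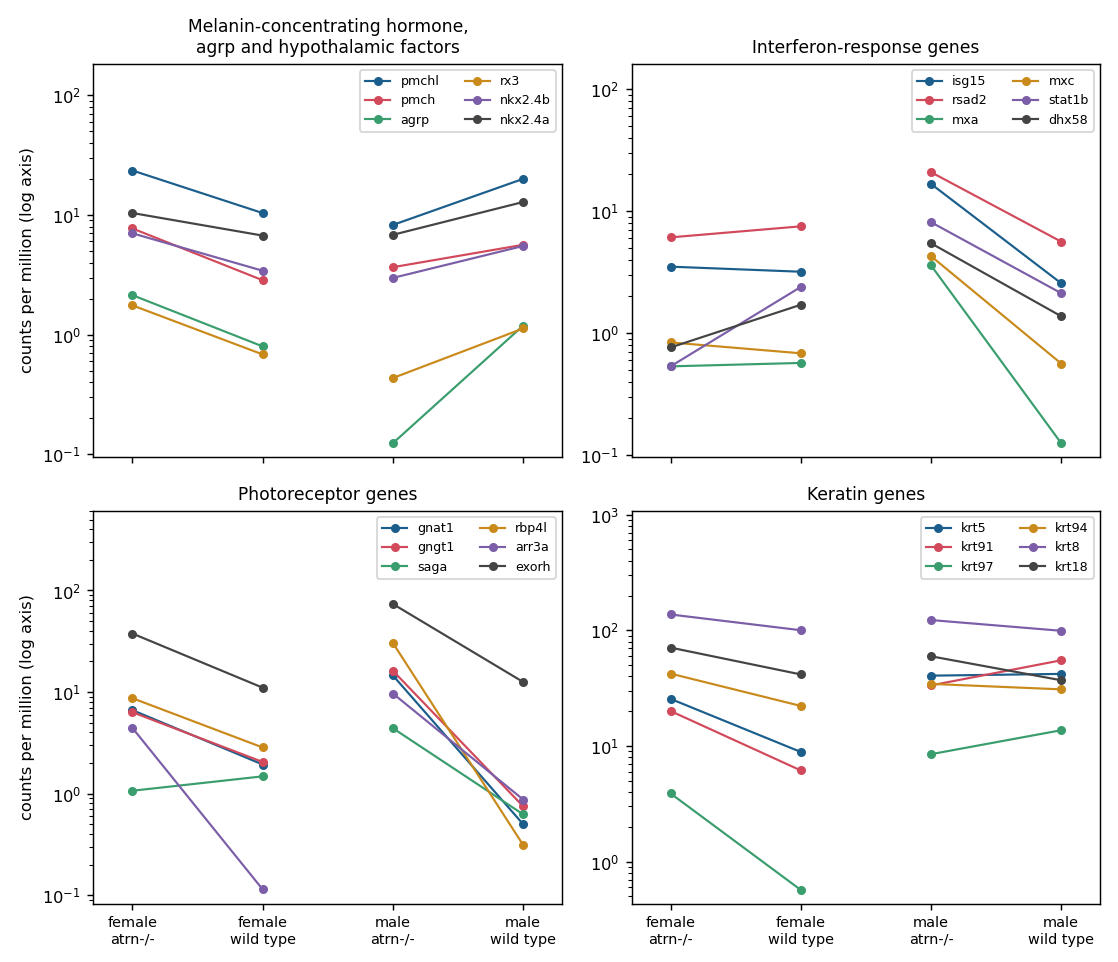
Scaled level of named genes in CPM (log axis) in the female atrn-/-, female wild-type, male atrn-/- and male wild-type library, with a line joining mutant and wild type of each sex. The genes of the first panel slope down to the wild type in females and up in males, the interferon-response genes have their high point in the male mutant, the photoreceptor genes are lower in the wild type of each sex (saga in males only), and krt97, krt91 and krt5 are low in the female wild type.

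Other named genes with ratios of opposite sign and a higher female ratio belong to no list used here. pkd1b, a polycystin, had 132 counts in the female mutant and 31 in the female wild type, against 59 in the male mutant and 119 in the male wild type, a difference of 2.47 (1.77 to 3.31). nub1, a regulator of the ubiquitin-like protein NEDD8, had 371 counts in the female mutant and 93 in the female wild type, against 246 in the male mutant and 491 in the male wild type, a difference of 2.41 (2.02 to 2.84). After scaling, the female wild type was the lowest library in both. aifm5, of the apoptosis-inducing factor family, had 68 counts in the female mutant and 30 in the female wild type, against 28 in the male mutant and 106 in the male wild type. Its difference was 2.43 (1.61 to 3.46), with the larger part in males. ccdc157, a coiled-coil protein, had 33 counts in the female mutant and 5 in the female wild type, against 12 in the male mutant and 30 in the male wild type. waif2, an inhibitor of Wnt signalling, had 17 counts in the female mutant and 4 in the female wild type, against 5 in the male mutant and 20 in the male wild type. The differences were 3.07 (1.66 to 5.45) for ccdc157 and 2.87 (1.16 to 6.03) for waif2, and the female interval of waif2 included 0.

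In the opposite direction stood stat1b, pvalb8, atp1a1a.4, pfkmb and cyp2k18. pvalb8, a parvalbumin that binds calcium, had 18 counts in the female mutant and 90 in the female wild type, against 117 in the male mutant and 15 in the male wild type. Its log2 ratio was -2.77 in females (-3.72 to -2.16) and 2.77 in males (2.17 to 3.83), so that the ratios of the sexes mirrored each other. atp1a1a.4, an alpha subunit of the sodium-potassium pump, had 3 counts in the female mutant and 18 in the female wild type, against 145 in the male mutant and 3 in the male wild type. Its difference was -7.31 (-11.72 to -6.07), and the male mutant alone held most of its reads. pfkmb, the muscle form of phosphofructokinase, had 7 counts in the female mutant and 40 in the female wild type, against 11 in the male mutant and 1 in the male wild type, a difference of -4.76 (-11.97 to -3.28). cyp2k18, a cytochrome P450, had 2 counts in the female mutant and 12 in the female wild type, against 23 in the male mutant and 3 in the male wild type, a difference of -4.56 (-9.63 to -3.0). Both rest on few reads, and pfkmb was highest in the female wild type, the library far above the rest in muscle RNA.

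Among the largest differences with a higher female ratio, fah turned on the female wild type, while arpp19b was low in both female libraries. fah, the last enzyme of tyrosine breakdown, had 146 counts in the female mutant and 4 in the female wild type, against 247 in the male mutant and 107 in the male wild type. It was higher in the mutant of each sex, with log2 ratios of 4.22 in females (3.23 to 6.51) and 1.18 in males (0.86 to 1.54). arpp19b, an inhibitor of protein phosphatase 2A, had 10 counts in the female mutant and 0 in the female wild type, against 78 in the male mutant and 99 in the male wild type. Taking a floor of 3 counts per library for the 0, it was at least 2.23-fold higher in the female mutant than in the female wild type. The size of its difference therefore depends on the 0 and on the prior count.

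loxl2b, a lysyl oxidase, which cross-links collagen, had 1193 counts in the female mutant and 349 in the female wild type, against 2879 in the male mutant and 39 in the male wild type. The log2 ratio was 1.19 in females (1.02 to 1.37) and 6.11 in males (5.74 to 6.69). The mutant was higher in both sexes, and the difference of -4.92 (-5.53 to -4.51) came with a sex difference of 3.95 between the wild types and -0.97 between the mutants on the log2 scale. loxl3a, a second lysyl oxidase, had 19 counts in the female mutant and 21 in the female wild type, against 65 in the male mutant and 17 in the male wild type, a difference of -2.46 (-3.94 to -1.35). These were the 2 members beyond the limit among 19 lysyl oxidase and elastic fibre genes (10.5%, against 1.56% of kept genes), whose median difference was -0.18.

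f13a1a.1, a subunit of clotting factor XIII that macrophages are also known to make, had 198 counts in the female mutant and 372 in the female wild type, against 26 in the male mutant and 0 in the male wild type. With the floor of 3 counts it was at least 8.6-fold higher in the male mutant than in the male wild type, while the log2 ratio in females was -1.48 (-1.74 to -1.24). The female libraries were both far above the male libraries. c7a, a component of the complement membrane attack complex, had 298 counts in the female mutant and 377 in the female wild type, against 408 in the male mutant and 133 in the male wild type, a difference of -2.50. gdf3, a growth factor of the TGF-beta family, had 76 counts in the female mutant and 73 in the female wild type, against 464 in the male mutant and 125 in the male wild type, a difference of -2.37. c7a was low in the male wild type and gdf3 was high in the male mutant, and both were named after their values were seen.

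**Figure D4:**
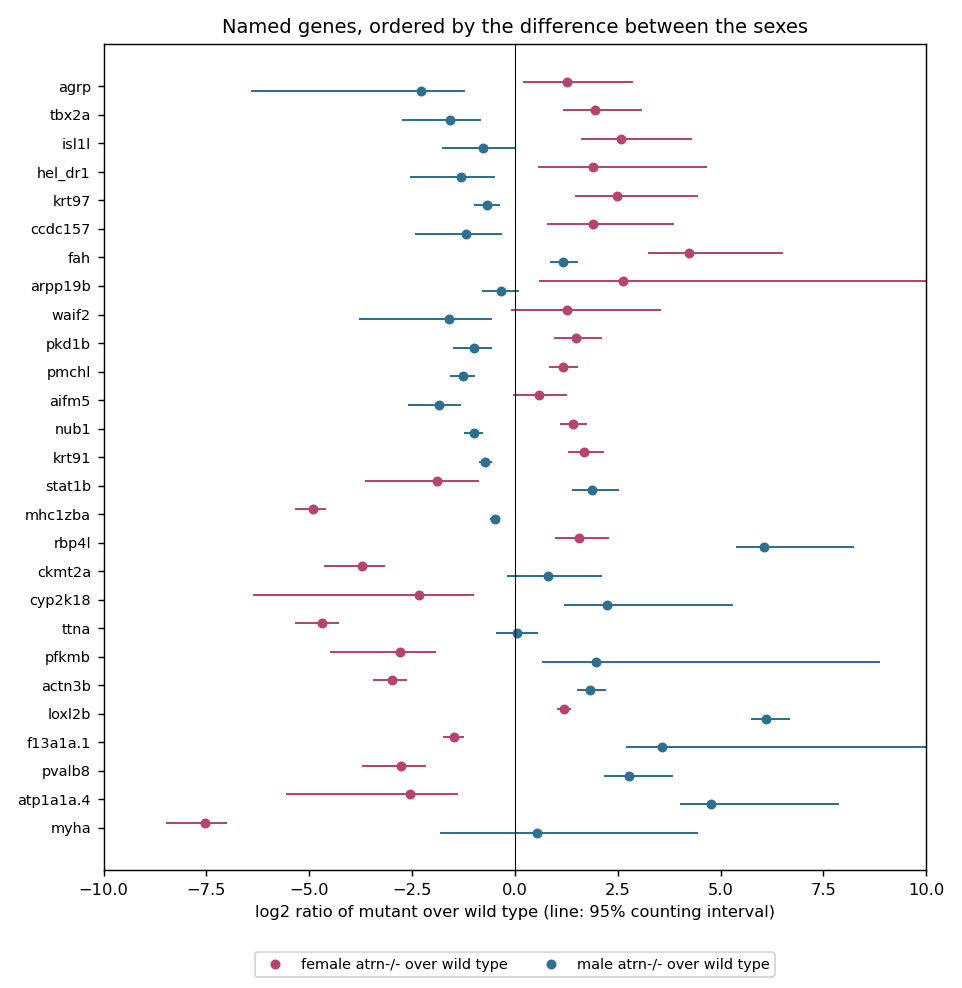
Log2 ratio of mutant over wild type in females (purple) and males (blue) for the genes named by their difference or by opposite signs, with exact 95% counting intervals. A line that runs to the edge belongs to a gene with 0 counts in a library, whose point depends on the prior count of 2. The intervals of the sexes lie apart for pmchl (0.84 to 1.53 in females, -1.58 to -0.98 in males) and meet or overlap for none of tbx2a, nub1, loxl2b or mhc1zba. The genes were chosen by these same ratios, so intervals that lie apart are no support for them.

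Skeletal muscle genes made up the list with the lowest median. The median log2 ratio of its 56 kept genes was -2.13 in females and -0.49 in males, the median difference was -1.59, and 50 genes were below 0. In 14 genes (25% of the list, against 1.56% of kept genes) the female ratio was at least 4-fold lower. myha, a myosin heavy chain, had 17 counts in the female mutant and 2359 in the female wild type, against 4 in the male mutant and 2 in the male wild type. Mutant over wild type, the log2 ratio was -7.54 in females (-8.48 to -7.01) and 0.54 in males (-1.81 to 4.46). Nearly all its reads were in the female wild type. ttna, which encodes the sarcomere spring titin, had 32 counts in the female mutant and 589 in the female wild type, against 68 in the male mutant and 65 in the male wild type. ckmt2a, the sarcomeric mitochondrial creatine kinase, had 18 counts in the female mutant and 174 in the female wild type, against 21 in the male mutant and 11 in the male wild type. These values follow the muscle RNA of the female wild-type library described above, and the source of that RNA was not tested.

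actn3b followed that pattern only in part. This alpha-actinin of fast muscle had 61 counts in the female mutant and 334 in the female wild type, against 311 in the male mutant and 85 in the male wild type, so that the female wild type and the male mutant were both high. Its log2 ratio was -2.99 in females (-3.45 to -2.63) and 1.83 in males (1.51 to 2.22). A few glycolysis genes were also high in the female wild type. gapdh, of the middle of the pathway, had 212 counts in the female mutant and 980 in the female wild type, against 114 in the male mutant and 119 in the male wild type, a difference of -2.70 (-3.16 to -2.27). pfkma had -2.98 (-4.74 to -1.87) and pkmb, a pyruvate kinase, had -2.62 (-3.84 to -1.44). They were 3 of the 4 genes beyond the limit in a list of 43 glycolysis genes, with pfkmb the other. Those 4 were 9.3% of the list, against 1.56% of kept genes. Of the 43, 36 were below 0, with a median difference of -0.28. The abundant neuronal enolase eno2 lay above 0 at 0.47 (0.41 to 0.53) and ldhba, a lactate dehydrogenase, at 0.37 (0.31 to 0.43). Cartilage collagens col9a1b and col11a2 had differences of -3.26 (-6.11 to -1.74) and -2.11 (-3.52 to -0.97). They belong to a list of 50 collagen, cartilage and bone genes with a median of -0.23. In that list 3 genes (6%, against 1.56% of kept genes) were at least 4-fold lower and 0 at least 4-fold higher. col10a1b, of cartilage that turns to bone, lay at 1.77 (0.92 to 2.8) and col11a1a at 0.52 (-0.01 to 1.06).

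**Figure D5:**
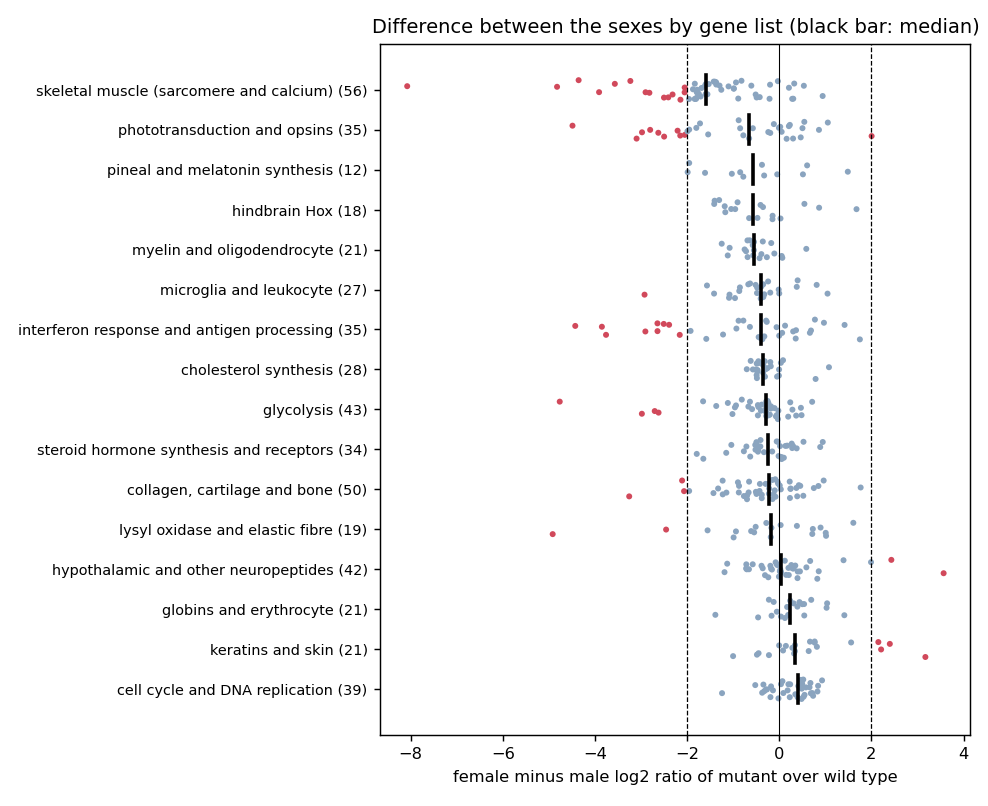
Each dot is a gene of the named list (number of kept genes in brackets), placed by the difference of the female and the male log2 ratio, red where the ratios were at least 4-fold apart, with a black bar at the list's median. Medians run between -1.59 for the skeletal muscle list and 0.40 for the cell cycle list, beside -0.000219 over all kept genes.

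Many interferon-response genes were highest in the male mutant. Interferons make cells switch on antiviral genes through STAT proteins, and antigen-processing genes are partly under the same control. Of 35 kept genes of the list, 9 (25.7%, against 1.56% of kept genes) had a female ratio at least 4-fold lower and 0 had one at least 4-fold higher. The median difference was -0.40, and 68.6% of the list lay below 0. The male mutant was the highest library for 20 of the 35. isg15, a ubiquitin-like protein that interferon induces, had 46 counts in the female mutant and 28 in the female wild type, against 270 in the male mutant and 41 in the male wild type. On the log2 scale the ratio was 0.13 in females (-0.57 to 0.87) and 2.64 in males (2.23 to 3.22), so the contrast lay in the males.

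rsad2, the antiviral enzyme viperin, had 80 counts in the female mutant and 66 in the female wild type, against 337 in the male mutant and 90 in the male wild type, a difference of -2.16 (-2.80 to -1.58). mxa, an antiviral GTPase, had 7 counts in the female mutant and 5 in the female wild type, against 58 in the male mutant and 2 in the male wild type, a difference of -3.85 (-8.45 to -1.94). stat1b, a signal carrier of interferon receptors, had 7 counts in the female mutant and 21 in the female wild type, against 131 in the male mutant and 34 in the male wild type, a difference of -3.76 (-5.67 to -2.65). In all of these the male mutant was the highest library. The related genes mxc, dhx58 (a sensor of viral RNA) and socs1a (a brake on STAT signalling) had differences of -2.39 (-4.58 to -0.56), -2.91 (-4.65 to -1.67) and -2.64 (-4.17 to -1.50). Outside the list, LOC100334604, described as like the chemokine CXCL11, had 1 count in the female mutant and 4 in the female wild type, against 89 in the male mutant and 1 in the male wild type. LOC795887, described as interferon-induced protein 44, had 2 counts in the female mutant and 8 in the female wild type, against 50 in the male mutant and 9 in the male wild type. The male mutant was again the high library in both, which were named after their values were seen.

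The 2 histocompatibility genes of that list beyond the limit did not share the pattern of the antiviral genes. mhc1zba, of MHC class I, had 62 counts in the female mutant and 1290 in the female wild type, against 918 in the male mutant and 1276 in the male wild type. Its difference was -4.43 (-4.88 to -4.08), and the female mutant was the low library. mhc2dab, of MHC class II, had 284 counts in the female mutant and 414 in the female wild type, against 359 in the male mutant and 122 in the male wild type, a difference of -2.64 (-3.05 to -2.29), with the male wild type low. Proteasome genes of antigen processing lay above 0, with psmb10 at 1.75 (0.37 to 3.63) and psmb9a at 1.42 (0.33 to 2.82). Microglia and leukocyte genes, some of which carry MHC class II, had a median difference of -0.40 over 27 kept genes with 23 below 0. Of these, 1 (3.7%, against 1.56% of kept genes) was at least 4-fold lower. It was lyz, the lysozyme of myeloid cells, with 3 counts in the female mutant and 24 in the female wild type, against 13 in both male libraries. The abundant members cd74a, apoeb and ccl34b.1 lay at -0.32 (-0.44 to -0.21), -0.39 (-0.55 to -0.23) and -0.01 (-0.32 to 0.30). The macrophage genes mpeg1.1 and marco had differences of -1.08 (-1.51 to -0.67) and -1.42 (-2.43 to -0.52). Other members ran the other way, with spi1b at 1.05 (0.16 to 2.04) and the chemokine receptor cxcr4b at 0.81 (0.05 to 1.62). The paralog spi1a lay at -1.57 (-2.33 to -0.90). mpeg1.1, marco, spi1b, cxcr4b and spi1a were named after their values were seen.

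Photoreceptor genes, which in the brain are used by the light-sensitive pineal organ, were also lower in the female ratio, in a different way. They were higher in the mutants of both sexes, with a median log2 ratio of 0.99 in females and 2.33 in males over 35 kept genes. The male mutant was the highest library for 29 of the 35. The female ratio was at least 4-fold lower in 9 genes (25.7%, against 1.56% of kept genes). It was at least 4-fold higher in 1 (2.86%, against 1.04%). The median difference was -0.65, but it was 0.01 over the genes that averaged 50 counts or more, so the shift was not present in the median of the more abundant genes.

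rbp4l, a retinol-binding protein, had 114 counts in the female mutant and 25 in the female wild type, against 490 in the male mutant and 5 in the male wild type. Its log2 ratio was 1.56 in females (0.98 to 2.3) and 6.05 in males (5.37 to 8.23). gnat1, the transducin of rods, had 87 counts in the female mutant and 17 in the female wild type, against 235 in the male mutant and 8 in the male wild type, a difference of -2.80 (-4.55 to -1.73). gngt1, its gamma partner, had 83 counts in the female mutant and 18 in the female wild type, against 261 in the male mutant and 12 in the male wild type, a difference of -2.62 (-4.05 to -1.60). Each was highest in the male mutant and lowest in the male wild type. saga, a visual arrestin, parapinopsinb, a pineal opsin, guca1a, gucy2f and pde6c, of the cyclic GMP cycle, and grk1b, an opsin kinase with 0 counts in the male wild type, were the other members on the lower side. rs1a, which encodes the adhesion protein retinoschisin, was on the upper side with 140 counts in the female mutant and 23 in the female wild type, against 112 in the male mutant and 114 in the male wild type.

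Pineal genes of melatonin synthesis had a median difference of -0.58 over 12 kept genes. aanat2, which sets the melatonin rhythm in the pineal, had 40 counts in the female mutant and 21 in the female wild type, against 110 in the male mutant and 41 in the male wild type, a difference of -1.03 (-2.04 to -0.05). asmt, the last enzyme of melatonin synthesis, had 33 counts in the female mutant and 8 in the female wild type, against 112 in the male mutant and 9 in the male wild type, a difference of -1.99 (-3.82 to -0.45). aanat2, which sets the melatonin rhythm in the pineal, had 40 counts in the female mutant and 21 in the female wild type, against 110 in the male mutant and 41 in the male wild type, a difference of -1.03 (-2.04 to -0.05). Its paralog asmt2, with more reads than asmt, lay near 0. asmt2 had 220 counts in the female mutant and 148 in the female wild type, against 297 in the male mutant and 287 in the male wild type. Its difference was -0.04 (-0.44 to 0.35). Above 0 lay irbp, a retinoid carrier, at 1.49 (0.69 to 2.63), tph1a at 0.51 (0.06 to 0.98) and bsx at 0.6 (-0.14 to 1.39). tph1a and bsx were named after their values were seen. Whether the amount of pineal tissue differed between the libraries was not tested.

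Keratin genes lay mostly on the upper side, with 16 of the list above 0 and 5 below. Keratins are the intermediate filaments of skin and other epithelia. Of 21 kept keratin and skin genes, 4 (19%, against 1.04% of kept genes) had a female ratio at least 4-fold higher and 0 at least 4-fold lower, and the median difference was 0.34. The female wild type was the lowest library for 13 of the 21. krt91 had 263 counts in the female mutant and 54 in the female wild type, against 539 in the male mutant and 881 in the male wild type, a difference of 2.4 (1.97 to 2.90). krt97 had 51 counts in the female mutant and 5 in the female wild type, against 137 in the male mutant and 219 in the male wild type, a difference of 3.17 (2.09 to 5.17). Both were higher in the males of both genotypes, and the female wild type was the lowest. krt5 had a difference of 1.56 (1.18 to 1.98). The abundant krt8 and krt18 lay near 0, at 0.14 (-0.008 to 0.30) and 0.08 (-0.15 to 0.32). krt4 lay below 0, at -0.48 (-1.10 to 0.14). The other 2 beyond the limit, epcam and krt1-19d, had 0 counts in the female wild type, and their counting intervals reached below 0. The median sex difference of the list was -0.29 in the mutants and -0.90 in the wild types.

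Cell cycle and DNA replication genes lay above 0 as well, by small amounts. Of 39 kept genes 28 were above 0, the median difference was 0.40 and 0 passed the 4-fold limit in either direction. The female wild type was the lowest library for 28 of the 39, a count not made over all kept genes. dut, which keeps uracil out of DNA, had 304 counts in the female mutant and 124 in the female wild type, against 353 in the male mutant and 408 in the male wild type, a difference of 0.93 (0.56 to 1.31). rrm2, a subunit of ribonucleotide reductase, had 671 counts in the female mutant and 214 in the female wild type, against 794 in the male mutant and 668 in the male wild type, a difference of 0.83 (0.56 to 1.11). cdk4, a cell cycle kinase, lay at the other end with -1.24 (-1.97 to -0.59). The sex difference of the list had a median of -0.02 in the mutants and -0.32 in the wild types.

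Among lists of other brain cells and regions, myelin and oligodendrocyte genes, of interest because attractin loss is known to disturb myelin in rodents, had a median log2 ratio of -0.04 in females and 0.37 in males, and 18 of 21 were below 0 with a median difference of -0.55. The male wild type was the lowest library for 16 of them. cldnk, a claudin of zebrafish myelin, had 1501 counts in the female mutant and 1064 in the female wild type, against 2287 in the male mutant and 1137 in the male wild type, a difference of -1.08 (-1.23 to -0.92). cnp, another gene of oligodendrocytes, lay at 0.59 (0.44 to 0.73). Hox genes, which mark the hindbrain and spinal cord, had a median difference of -0.56 over 18 kept genes, 14 below 0 and 4 above. The male wild type was the lowest library for 14. hoxa4a had 98 counts in the female mutant and 63 in the female wild type, against 93 in the male mutant and 32 in the male wild type, a difference of -1.40 (-2.26 to -0.69). The Hox difference largest in size ran the other way, hoxc3a at 1.677 (0.4285 to 3.299). Its log2 ratio was 1.142 in females and -0.535 in males. Whether the share of hindbrain or cord differed between the libraries was not tested. Globin and erythrocyte genes had median log2 ratios of -0.83 in females and -0.77 in males, with a median difference of 0.24, and immediate early and clock genes had medians of -0.01 and 0.03.

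Genes of steroids and sterols are of interest for a sex difference, and none was at least 4-fold apart. The list of steroid hormone synthesis and receptors had a median difference of -0.24 over 34 kept genes, with 13 above 0. hsd11b2, which inactivates cortisol and takes part in making 11-ketotestosterone in fish, had 394 counts in the female mutant and 240 in the female wild type, against 808 in the male mutant and 231 in the male wild type. Mutant over wild type, the log2 ratio was 0.14 in females (-0.10 to 0.37) and 1.78 in males (1.58 to 2.01). The male mutant was the high library. hsd17b3, which makes testosterone, had 94 counts in the female mutant and 120 in the female wild type, against 265 in the male mutant and 223 in the male wild type, a difference of -1.15 (-1.65 to -0.68). esr1, an estrogen receptor, had 101 counts in the female mutant and 44 in the female wild type, against 104 in the male mutant and 131 in the male wild type, a difference of 0.94 (0.30 to 1.64). Cholesterol synthesis genes were mostly higher in the mutants of both sexes, with median log2 ratios of 0.37 in females and 0.77 in males. Of 28 differences, 24 were below 0, with a median of -0.34. The difference largest in size ran the other way, pmvk at 1.08 (0.49 to 1.72). hmgcrb was lower in the female mutant, with a log2 ratio of -0.21 (-0.40 to -0.03). The male mutant was the highest library for 22 of the 28.

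Most genes at least 4-fold apart were unnamed loci. Of the 519, 322 (62.0%) carry only a locus or clone name, against 30.2% of kept genes. The share was 73.0% on the upper side and 54.8% on the lower side. si:ch211-116m6.3 had 258 counts in the female mutant and 3 in the female wild type, against 11 in the male mutant and 318 in the male wild type. On the log2 scale the ratio was 5.34 in females (4.29 to 8.13) and -4.59 in males (-5.88 to -4.01), a difference of 9.93 (8.78 to 13.43). zgc:153441 had 105 counts in the female mutant and 4 in the female wild type, against 7 in the male mutant and 112 in the male wild type, a difference of 7.38 (6.18 to 10.36). In both, the female mutant and the male wild type held nearly all the reads.

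LOC566996, described as like prostaglandin reductase 1, had the reverse, with 0 counts in the female mutant and 55 in the female wild type, against 84 in the male mutant and 2 in the male wild type. It was at least 27.4-fold lower in the female mutant than in the female wild type, and its log2 ratio in males was 4.29 (3.48 to 8.45). The annotated gene ptgr1, prostaglandin reductase 1 itself, had 119 counts in the female mutant and 297 in the female wild type, against 606 in the male mutant and 169 in the male wild type, a difference of -3.70. The female wild type and the male mutant were the high libraries in both, and reads of such similar genes may be shared between them. zgc:172122 had 0 counts in the female mutant and 256 in the female wild type, against 212 in the male mutant and 261 in the male wild type, at least 127-fold lower in the female mutant. LOC100536995 had 234 counts in the female mutant and 524 in the female wild type, against 221 in the male mutant and 0 in the male wild type, at least 73.1-fold higher in the male mutant. sc:d189 had 404 counts in the female mutant and 0 in the female wild type, against 295 in the male mutant and 179 in the male wild type, at least 90.2-fold higher in the female mutant. Each of these is set by a single library without reads.

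Several gene families with many near-identical copies were among the loci. Their patterns were chosen after values were seen, and reads may be shared among copies. Of 796 kept zinc finger genes by description, 22 were at least 4-fold higher and 10 at least 4-fold lower in the female ratio, 4.02% in all, against 2.6% of kept genes. In 16 of those beyond the limit the female wild type was below the rest. The zinc finger counts may include the ZNF335-like genes given next, so they need not describe the family at large. Of 11 genes described as ZNF335-like, 10 were at least 4-fold higher, and in all 10 the female wild type was below the rest. LOC101884188 had 233 counts in the female mutant and 1 in the female wild type, against 631 in the male mutant and 210 in the male wild type. LOC101883499 had 108 counts in the female mutant and 0 in the female wild type, against 218 in the male mutant and 56 in the male wild type. These copies were counted in 3 libraries and were nearly silent in the female wild type.

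NACHT domain receptors, a large family of innate immune genes in fish, had 51 kept genes, of which 2 were at least 4-fold higher and 5 at least 4-fold lower, 13.7% in all, against 2.6% of kept genes. LOC559196 of this family had 154 counts in the female mutant and 20 in the female wild type, against 52 in the male mutant and 216 in the male wild type, a difference of 4.31 (3.59 to 5.30). LOC103911540, described as like an MHC class II beta chain, had 140 counts in the female mutant and 0 in the female wild type, against 318 in the male mutant and 164 in the male wild type. It was at least 31.3-fold higher in the female mutant than in the female wild type. All 3 genes described as like the ubiquitin ligase HECTD4 had a higher female ratio. LOC101882892 among them had 24 counts in the female mutant and 9 in the female wild type, against 10 in the male mutant and 92 in the male wild type, a difference of 3.69 (2.45 to 5.69).

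Direct neighbours in the genome were counted as well, as a description with no test. By gene order in the RefSeq annotation of GRCz12tu, in which 364 of the 519 were matched, 48 (13.2%) had another such gene as a direct neighbour, against 708 of 17316 kept genes (4.09%). There were 4 runs of 3 neighbours. They held LOC101882892 with another HECTD4-like gene, ZNF335-like copies, and LOC103911540 beside a pair of clone-named genes. The order comes from another assembly than the counts, so no coordinates are given, and copies that share reads can be neighbours.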

How the data were processed

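For each of 4 brain libraries the authors deposited, per gene, unnormalized read counts. The paper names MapSplice as the aligner, the submitters' processing notes name HISAT2 and GRCz10, and the counting program, annotation and use of strand are not given in the sources used here. Libraries were grouped by their labels. Counts were scaled with TMM in edgeR 4.0.16 (R 4.3.3), genes that averaged 10 counts or more were kept, and log2 CPM used a prior count of 2. A ratio's 95% interval is exact (Clopper-Pearson, on the share of reads from the mutant), and that of the difference is the exact conditional interval of the odds ratio. The steps were tested on simulated data. Tables and plots used Python 3.11.15, pandas 2.3.3, numpy 2.4.6 and matplotlib 3.10.9.

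The gene choice, lists and rules were made with earlier results of these data known. Named genes were atrn, the 10 highest and 10 lowest differences among genes with a symbol and 50 counts in a library, 5 of opposite sign in each direction with the largest smaller ratio, 3 loci in each direction, and of each list the 3 most abundant genes and up to 8 beyond the limit, not all of which are printed. Others were named after their values were seen. A library was given a floor of 3 counts where a gene had 0. Alternatives were total counts, DESeq2 1.42.0 size factors, no filter, a filter at an average of 50 counts, prior counts of 0.5 and 5, thinning to the smallest library, other fold limits, and leaving out the muscle list. The promoter search that was planned was not run, and annotation columns other than the name and description were not used.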

Additional observations from a re-analysis of the deposited data

Results flagged for a closer look

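The ratios of mutant over wild type ran in opposite directions in the sexes, by at least 2-fold in each, for 102 genes. These differences were not tested, since each sex and genotype has 1 library. Among them, the 5 genes with a symbol that had the largest smaller ratio in the direction of a higher female ratio were agrp with a difference of 3.57, tbx2a with 3.53, hel_dr1 with 3.21, ccdc157 with 3.07 and waif2 with 2.87. hel_dr1, described as the replicase of a helitron-like transposon and so likely to share reads with other copies, had 22 counts in the female mutant and 3 in the female wild type, against 12 in the male mutant and 33 in the male wild type. The 5 chosen likewise with a lower female ratio were atp1a1a.4 with -7.31, pvalb8 with -5.54, pfkmb with -4.76, cyp2k18 with -4.56 and stat1b with -3.76. Of these, pfkmb and cyp2k18 rest on few reads, and pfkmb is a muscle form that was highest in the muscle-rich female wild-type library.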

How the results depend on the processing

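With 1 library per sex and genotype, no library can be left out and still give a difference, so that alternative was not run, and no paired analysis was possible because no group has replicates. Of 519 genes at least 4-fold apart (207 with a higher and 312 with a lower female ratio), 338 with 1 library apart and 102 of opposite sign, the counts became 1362, 549, 813, 746 and 337 with no filter, and 128, 50, 78, 80 and 28 among genes averaging 50 counts or more. A prior count of 5 left 137 with a higher female ratio and 66 of opposite sign. The number was 902 at 3-fold apart, 185 at 8-fold, and 428 were of opposite sign by 1.5-fold in each sex. Chosen after seeing the data, requiring an interval beyond 2-fold left 341, and dropping genes with the female wild type apart left 325, of which 95 had a higher female ratio. Total counts, DESeq2 size factors, a prior count of 0.5, thinning and dropping the muscle list left the 519 within 1.5 times. With total counts 513 of the same genes passed, with thinning 428. The photoreceptor median of -0.65 became 0.011 with the filter at 50 counts, the cause of which was not tested. The differences of the 111 genes named kept their sign in 736 of 736 values under the alternatives. Many of these genes were chosen by the size of their difference in the same libraries, so the kept signs say little about robustness. Of 112 list medians under the alternatives, 29 moved by more than their counting error and 1 turned sign. Low counts limit most of these genes.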

Other observations

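Further genes at least 4-fold apart belong to no list above and were named after their values were seen. rnf150a, a membrane-bound RING finger protein, had 1146 counts in the female mutant and 392 in the female wild type, against 708 in the male mutant and 1584 in the male wild type, a difference of 2.14. pogza, a zinc finger gene related to a transposase, had 258 counts in the female mutant and 82 in the female wild type, against 132 in the male mutant and 311 in the male wild type, a difference of 2.3. Both were low in the female wild type and the male mutant. mat2ab, which makes the methyl donor S-adenosylmethionine, had 147 counts in the female mutant and 19 in the female wild type, against 70 in the male mutant and 61 in the male wild type, a difference of 2.12. After scaling, the female mutant was its highest library and the female wild type its lowest.

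On the lower side, stoml3b, of the stomatin family of membrane proteins, had 4 counts in the female mutant and 87 in the female wild type, against 58 in the male mutant and 69 in the male wild type, a difference of -4.22. tlr8a, a toll-like receptor for RNA, had 16 counts in the female mutant and 99 in the female wild type, against 94 in the male mutant and 146 in the male wild type, a difference of -2.43. prkacbb, a catalytic subunit of protein kinase A, had 23 counts in the female mutant and 96 in the female wild type, against 153 in the male mutant and 98 in the male wild type, a difference of -3.16. The female mutant was the low library in all of these. npffl, a precursor of neuropeptide FF, had 19 counts in the female mutant and 55 in the female wild type, against 158 in the male mutant and 154 in the male wild type, a difference of -2.03, and the female mutant was again the lowest.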
